A study of Mus musculus with 32 samples.

Results

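The uroplakins are the membrane proteins that pave the urinary face of the bladder. The 5 genes described here, Upk1a, Upk1b, Upk2, Upk3a and Upk3b, were taken by symbol from a count table of 32285 genes, and each symbol matched 1 row. Bulk RNA sequencing was performed on 32 whole bladders of female C57BL/6 mice from an aging colony, 1 bladder per library. Young mice were 2 months old (n = 6), middle-aged mice 10 months (n = 5) and old mice 26 months (n = 6), all 3 groups being untreated. A further 3 groups of 26-month mice were gavaged from 21 to 26 months of age on 3 days a month. They received water (n = 5), the drug vehicle (n = 4) or dasatinib plus quercetin (D + Q, n = 6) at 5 and 50 mg/kg/day. D + Q is a senolytic combination, meant to clear senescent cells, and the vehicle is a mixture of a phospholipid concentrate, polyethylene glycol and ethanol. A whole bladder holds urothelium, stroma, muscle, vessels, nerves and the outer mesothelium, so that fewer umbrella cells and less RNA per umbrella cell cannot be told apart in these data.

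Umbrella cells form the superficial layer of the urothelium. Their apical membrane is covered by rigid plaques in which uroplakins pack into hexagonal particles, and the plaques together with tight junctions keep urine out of the tissue. Upk1a and Upk1b are tetraspanins, the partners that single-pass uroplakins need. Upk2 pairs with Upk1a, and Upk3a pairs with Upk1b. Upk3b is the minor alternative partner of Upk1b and is also made by mesothelium. The pairs are assembled in the endoplasmic reticulum and carried to the surface in fusiform vesicles as the bladder fills.

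All 5 genes lie at separate loci of the mm10 genome, and no other annotated gene overlaps any of them. Upk1a spans chr7:30603092-30612847 on the minus strand (ENSMUSG00000006313, 8 exons). Upk1b spans chr16:38773184-38800328 on the minus strand (ENSMUSG00000049436, up to 8 exons). Upk2, the shortest, spans chr9:44452715-44454976 on the minus strand (ENSMUSG00000041523, 5 exons). Upk3a spans chr15:85017141-85022547 on the plus strand (ENSMUSG00000022435, 6 exons). Upk3b spans chr5:136038496-136046487 on the plus strand (ENSMUSG00000042985, 6 exons).

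Upstream sequence from RefSeq (GRCm38.p6) was matched for 3 of the 5 genes. The 250 bases before each RefSeq start are shown because Gata3, a transcription factor of urothelial differentiation, was measured beside these genes, and because Upk1a and Upk3a moved together across bladders. The windows are chr7:30612735-30612984 on the minus strand for Upk1a, chr15:85016891-85017140 on the plus strand for Upk3a and chr5:136038246-136038495 on the plus strand for Upk3b, each written 5′ to 3′ on the strand of its gene. In Upk1a the RefSeq start lies inside the gene span given above, so that the last 113 bases of its window belong to that span, whereas the windows of Upk3a and Upk3b end where the spans begin. Capitals mark matches to a GATA hexamer (AGATAA or AGATAG, or alternatively TGATAA or TGATAG), searched on both strands.
Upk1a: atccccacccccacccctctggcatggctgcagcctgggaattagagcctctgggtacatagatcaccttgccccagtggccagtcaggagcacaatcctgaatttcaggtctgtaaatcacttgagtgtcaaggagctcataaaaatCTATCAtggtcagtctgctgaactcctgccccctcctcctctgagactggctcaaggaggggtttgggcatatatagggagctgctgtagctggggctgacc
Upk3a: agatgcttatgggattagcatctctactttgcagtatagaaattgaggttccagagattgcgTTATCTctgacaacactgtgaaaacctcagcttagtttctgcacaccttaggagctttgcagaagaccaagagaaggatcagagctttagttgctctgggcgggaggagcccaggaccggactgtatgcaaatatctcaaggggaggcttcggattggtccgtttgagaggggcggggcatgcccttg
Upk3b: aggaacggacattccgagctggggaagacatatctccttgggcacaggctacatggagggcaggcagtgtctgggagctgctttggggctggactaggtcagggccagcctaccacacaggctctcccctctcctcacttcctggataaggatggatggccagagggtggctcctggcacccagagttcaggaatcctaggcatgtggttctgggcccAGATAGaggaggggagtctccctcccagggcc

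Each of the 3 windows held 1 GATA hexamer. The first letter of the match lay 102 bases before the RefSeq start in Upk1a, and so within the gene span, 188 bases before it in Upk3a and 32 bases before it in Upk3b. Of 32851 promoter windows of the same length in the table, 26.5% held at least 1 such hexamer. A TATA hexamer (TATAAA or TATATA, both strands) was present in Upk1a alone among the 3, starting 32 bases before the RefSeq start and also within the gene span, against 15.6% of all windows. The GC box GGGCGG, searched on both strands, occurred at 2 places in Upk3a, 91 and 18 bases before the RefSeq start, against 32.7% of all windows. The Grainyhead motif AACCNGTT was in none of the 3 windows, and 1.79% of all windows held it. These matches describe letters in a window and do not show binding.

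Libraries held between 15088372 and 52650259 counts. A group of 4 libraries, young replicates 3 and 4, water replicate 1 and vehicle replicate 4, held at most 21252772 counts, and the other 28 held at least 28400834. The mitochondrially encoded share of TPM (transcript abundance corrected for gene length and library size) was 5.64% to 7.52% in the 4 shallow libraries and 6.39% to 9.64% in the other 28. The median Pearson r of a library, over genes, with the others of its group was 0.963 to 0.991. The shallow libraries stood high for several uroplakins. Upk2 was highest or second highest of its group in all 4, and Upk1a likewise. For that reason several uroplakin values below are given also without these bladders. Since 3 counts correspond to at most 0.205 CPM, the counts scaled to library size, in any library, depth did not limit the detection of any uroplakin.

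The uroplakins were among the most abundant transcripts of the bladder. Together they made up 0.747% to 0.992% of all TPM, the unit in which genes can be compared. Upk1a ranked 23 of all genes by median TPM, Upk3a 39, Upk1b 58, Upk2 64 and Upk3b 421. The order of levels was stable. Upk1a exceeded Upk3a in 32 of 32 bladders, by 1.28 to 1.58 times in TPM, and Upk3a exceeded Upk1b in 32 of 32, by 1.24 to 1.74 times. Upk1b and Upk2 were close neighbours, with Upk1b higher in 28 of 32 bladders and a TPM ratio of 0.870 to 1.36, so their order was not beyond the spread. The 4 exceptions were young replicate 4, middle-aged replicate 4, water replicate 1 and vehicle replicate 4. Upk3b was the lowest in every bladder, Upk2 exceeding it by 3.98 to 5.96 times in TPM.

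Over the 32 bladders, Upk1a ranged from 2842.5 to 3731 TPM with a median of 3285. Upk3a ranged from 1928 to 2677 TPM with a median of 2327. Upk1b ranged from 1296 to 1794 TPM with a median of 1519. The other single-pass partner, Upk2, covered a wider relative range, from 1105 to 1712 TPM with a median of 1376. Upk3b ranged from 249 to 321 TPM with a median of 281. The highest bladder exceeded the lowest by 1.29 times in TPM for Upk3b and by 1.55 times for Upk2, the least and the most variable by this measure. The coefficient of variation of CPM over 32 bladders was 7.27% for Upk1b, 7.53% for Upk3b, 8.68% for Upk1a, 8.77% for Upk3a and 11.5% for Upk2, against a median of 13.0% over the 18093 genes kept by the abundance filter in the fit of all 6 groups.

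**Figure D1:**
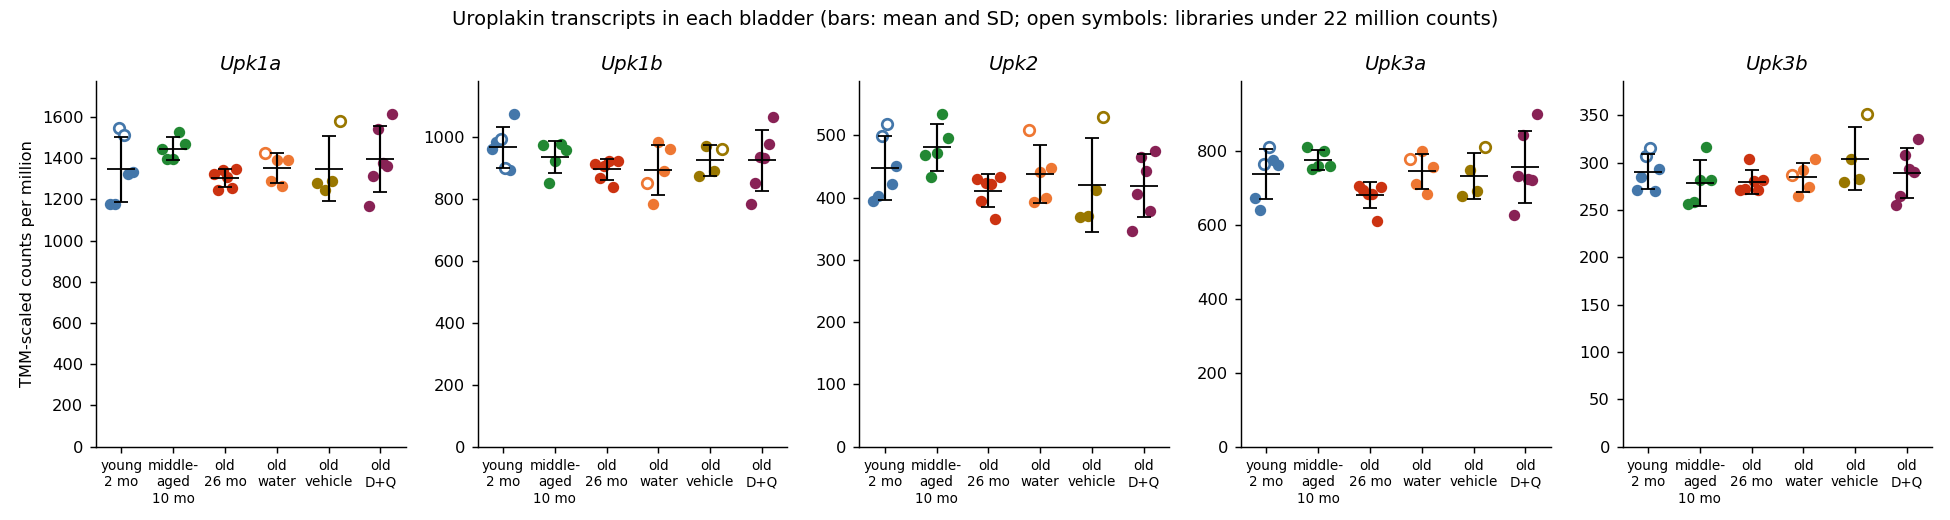
TMM-scaled CPM (y axis, from 0) of each uroplakin in every bladder by group (x axis), with black bars for the group mean and SD. Open symbols are the 4 libraries with at most 21252772 counts, and the old untreated bladders of Upk1a and Upk3a all lie below the middle-aged ones.

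From 2 to 10 months, from young adult to middle age, no uroplakin passed the test. The mean CPM of Upk1a was 1346 ± 159 (SD, n = 6) in young and 1447 ± 54.8 (SD, n = 5) in middle-aged bladders. Upk2 went from 448 ± 51.2 (SD, n = 6) to 481 ± 37.3 CPM (SD, n = 5), and Upk3a from 738 ± 66.5 (SD, n = 6) to 776 ± 27.7 CPM (SD, n = 5). In all 3 genes the groups overlapped, and the young bladders were the more scattered. For Upk1a, young bladders had a lowest value of 1177, a median of 1329.5 and a highest of 1548 CPM. The middle-aged bladders were at 1446, 1396, 1396, 1527 and 1468 CPM, inside the young range.

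The log2 fold changes in middle-aged against young bladders were 0.12 ± 0.08 (SE) for Upk1a, 0.11 ± 0.08 for Upk2, 0.08 ± 0.07 for Upk3a, -0.03 ± 0.06 for Upk1b and -0.05 ± 0.06 for Upk3b. With edgeR's quasi-likelihood test, 0 of 5 uroplakins had a Benjamini-Hochberg adjusted p under 0.05 and 0 of 5 an unadjusted p under 0.05, DESeq2 likewise calling 0, where 10.8% of all tested genes were called. The smallest adjusted p among the 5 was 0.374, for Upk1a. This result depended on young replicates 3 and 4 together, the only shallow libraries in this comparison. Leaving out either alone gave 0 uroplakin calls. Without the 4 shallow libraries, an alternative chosen after seeing the data, Upk1a rose by a log2 fold change of 0.21 ± 0.06 (SE, edgeR adjusted p = 0.0290) and Upk2 by 0.21 ± 0.07 (SE, edgeR adjusted p = 0.0396), so that 2 of 5 passed, both higher. In that fit 10.8% of all tested genes were called higher. Upk3a stayed at 0.13 ± 0.07 (SE, edgeR adjusted p = 0.176) and did not pass. Upk1a and Upk2 are the partners of 1 pair, and the 2 highest young values of each came from the shallow libraries, at 1548 and 1514 CPM for Upk1a and at 519 and 499 CPM for Upk2.

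The other genes of the urothelium moved as follows between young and middle-aged bladders. Of all 16754 tested genes, 831 were called higher and 980 lower. Of 12 transcription factors of urothelial identity and differentiation, 4 rose and 0 fell, with a list median log2 fold change of 0.19 against 0.00 over all genes tested. Klf5 rose by 0.42 ± 0.07 (SE, edgeR adjusted p = 0.00582) and Ehf by 0.30 ± 0.04 (SE, edgeR adjusted p = 0.00171), with Foxa1 and Rxra beside them. Of 9 pan-urothelial genes, mostly keratins and adhesion genes chosen for all urothelial layers, 3 rose, namely Cldn7, Epcam and Esrp1, with a median of 0.16. Of 12 tested genes for the vesicle traffic of plaques, 1 rose, the Rab27 effector Sytl2 (0.31 ± 0.06, SE, edgeR adjusted p = 0.0127). Of 7 superficial cell genes 1 rose, the tight junction scaffold Tjp3 (0.34 ± 0.09, SE, edgeR adjusted p = 0.0307), and the list median was -0.04. Of 10 tested basal and intermediate cell genes 1 rose, Lamb3, and 2 fell, Krt14 and Itga6. Of 8 mesothelial genes 1 fell, Aldh1a2 (-0.75 ± 0.16, SE, edgeR adjusted p = 0.0128), with a list median of -0.28. Fibroblast markers fell in 6 of 8, and their summed level went from 15209.9 to 28449 CPM in young bladders to 10063 to 12567.5 CPM in middle-aged ones, with no marker at 0. Scaled on the pan-urothelial genes, 1 transcription factor rose and 2 fell, 1 pan-urothelial gene rose, and 1 vesicle traffic, 2 superficial, 4 basal and 3 mesothelial genes fell. On that scale 31.1% of all tested genes were called lower and 259 of 16754 higher. The part of these shifts in the uroplakin values was not tested.

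From 10 to 26 months, between middle-aged and untreated old bladders, Upk1a, Upk2 and Upk3a fell relative to all genes. None of these 3 passed the test relative to pan-urothelial genes, and Upk1b and Upk3b did not pass it relative to all genes. Both members of the Upk1a and Upk2 pair fell, and Upk3a fell without its partner Upk1b passing. The old bladders were 9.81% lower for Upk1a, 14.5% lower for Upk2 and 12.4% lower for Upk3a. With edgeR's quasi-likelihood test, 3 of 5 uroplakins were called, where 24.0% of all tested genes were called and 11.0% were called lower. No library of these 2 groups was among the 4 shallow ones.

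Upk3a, the single-pass partner of Upk1b, was at 811, 751, 759, 799.9 and 758 CPM in the 5 middle-aged bladders. In the 6 old bladders its lowest value was 611, its median 689 and its highest 706 CPM. Every old bladder was below every middle-aged one. The log2 fold change was -0.19 ± 0.04 (SE, edgeR adjusted p = 0.00694), with a 95% confidence interval of -0.29 to -0.10.

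Upk1a, the most abundant member, was at 1446, 1396, 1396, 1527 and 1468 CPM in middle-aged bladders. In old bladders its lowest value was 1248, its median 1318 and its highest 1349 CPM. Again the groups did not overlap. The log2 fold change was -0.15 ± 0.04 (SE, edgeR adjusted p = 0.0171), with a 95% confidence interval of -0.24 to -0.06. Of all tested genes, 6.10% were lower in old bladders without overlap of the groups, against 2 of the 5 uroplakins.

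Upk2, the single-pass partner of Upk1a, was at 469, 433, 472, 534 and 496 CPM in middle-aged bladders. Its old values had a lowest of 365, a median of 422 and a highest of 434 CPM. The highest old bladder was just above the lowest middle-aged one, so the groups overlapped in that 1 pair of bladders. The log2 fold change, the largest of the 5, was -0.23 ± 0.06 (SE, edgeR adjusted p = 0.0138), with a 95% confidence interval of -0.35 to -0.10.

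Upk1b, the tetraspanin that pairs with Upk3a and Upk3b, was at 973, 853, 923, 977 and 957 CPM in middle-aged bladders. In old bladders its lowest value was 839.98, its median 910.5 and its highest 924 CPM. The groups overlapped, and the log2 fold change was -0.06 ± 0.04 (SE, edgeR adjusted p = 0.331) with a 95% confidence interval of -0.16 to 0.03. Upk3b was at 256, 258, 282, 316 and 282 CPM in middle-aged bladders and at 271 to 304 CPM in old ones, with a median of 276. Its log2 fold change was 0.00 ± 0.05 (SE, edgeR adjusted p = 0.962), and the 95% confidence interval of -0.11 to 0.12 lay above the estimates for Upk2, Upk3a and Upk1a. Whether Upk1b and Upk3b differed in their change from the other 3 was not tested.

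**Figure D2:**
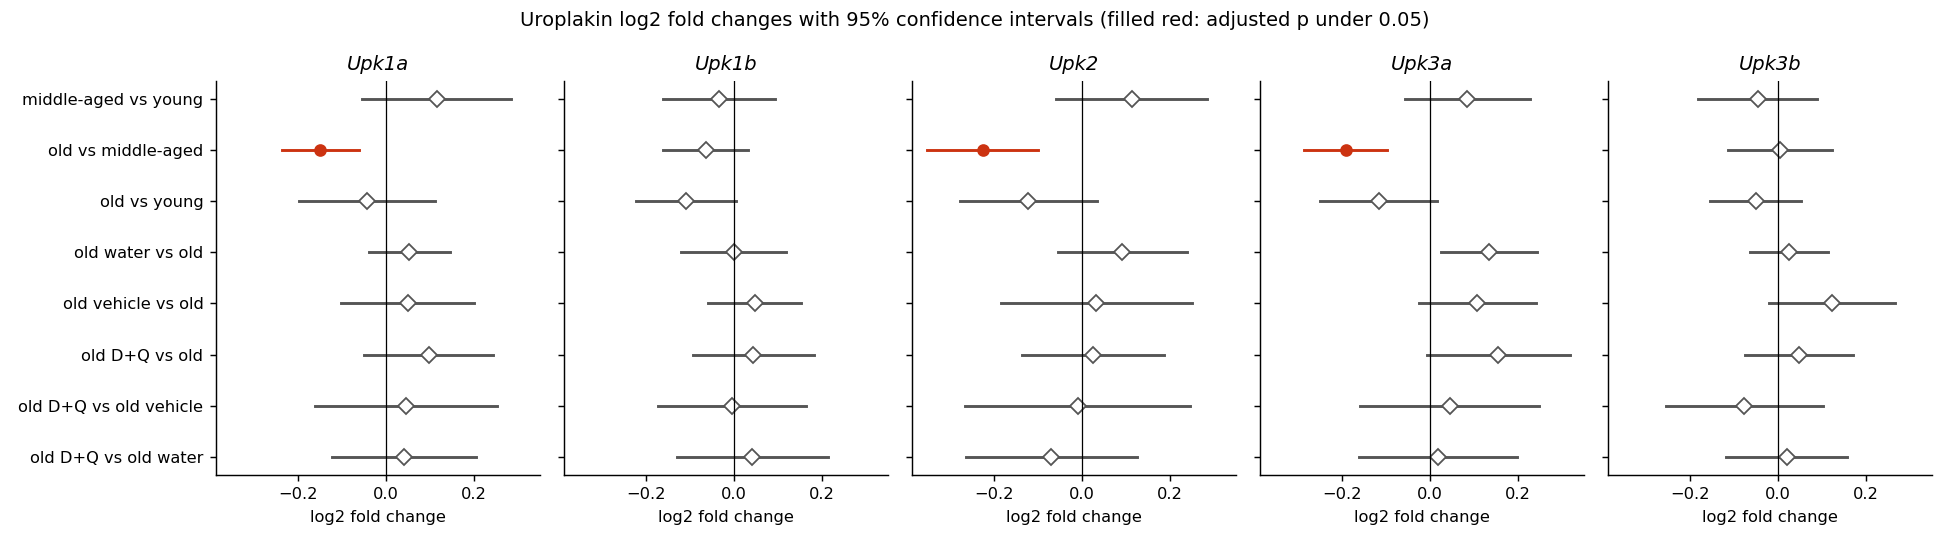
Log2 fold change (x axis) of each uroplakin in the 8 comparisons of 2 groups (y axis, first group minus second), with lines for 95% confidence intervals from edgeR. Filled red points have an adjusted p under 0.05: Upk1a at -0.15, Upk2 at -0.23 and Upk3a at -0.19 in old against middle-aged bladders, and no other point, although these 3 calls are lost when values are scaled on pan-urothelial genes.

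These calls rest on the scale of all genes in the bladder. Immune transcripts were far higher in old bladders. All 7 B and plasma cell markers rose, their summed level going from 47.1 to 273 CPM in middle-aged bladders to 1812 to 11883 CPM in old ones, with no marker at 0. All 6 T cell markers rose, from 9.53 to 12.6 CPM in sum to 34.6 to 79.1 CPM, and 6 of 7 myeloid markers rose, from 525 to 634 CPM to 779 to 1217 CPM, again with no marker at 0. The part of these cells in the fall of the uroplakins was not tested. When each bladder was instead scaled on the 9 pan-urothelial genes, which puts uroplakins against those epithelial genes, the median of all genes moved from -0.00 to 0.14. On that scale Upk1a was at 0.00, Upk2 at -0.07, Upk3a at -0.04 and Upk1b at 0.09, and none of these 4 passed (smallest edgeR adjusted p = 0.152). Upk3b rose on that scale, by 0.15 (edgeR adjusted p = 0.0339), where 38.7% of all tested genes were called higher. Relative to the median of all genes, the values on that scale were -0.14 for Upk1a, -0.22 for Upk2 and -0.18 for Upk3a. Subtracting that median undoes the scaling, so these values only restate the fall relative to all genes. The 3 calls also ended when all 6 groups were fitted together, with the same log2 fold changes of -0.15, -0.23 and -0.19 but a spread estimated over 32 bladders. In that fit 0 of 5 uroplakins passed, 2 of 5 had an unadjusted p under 0.05, and 13.9% of all tested genes were called.

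**Figure D3:**
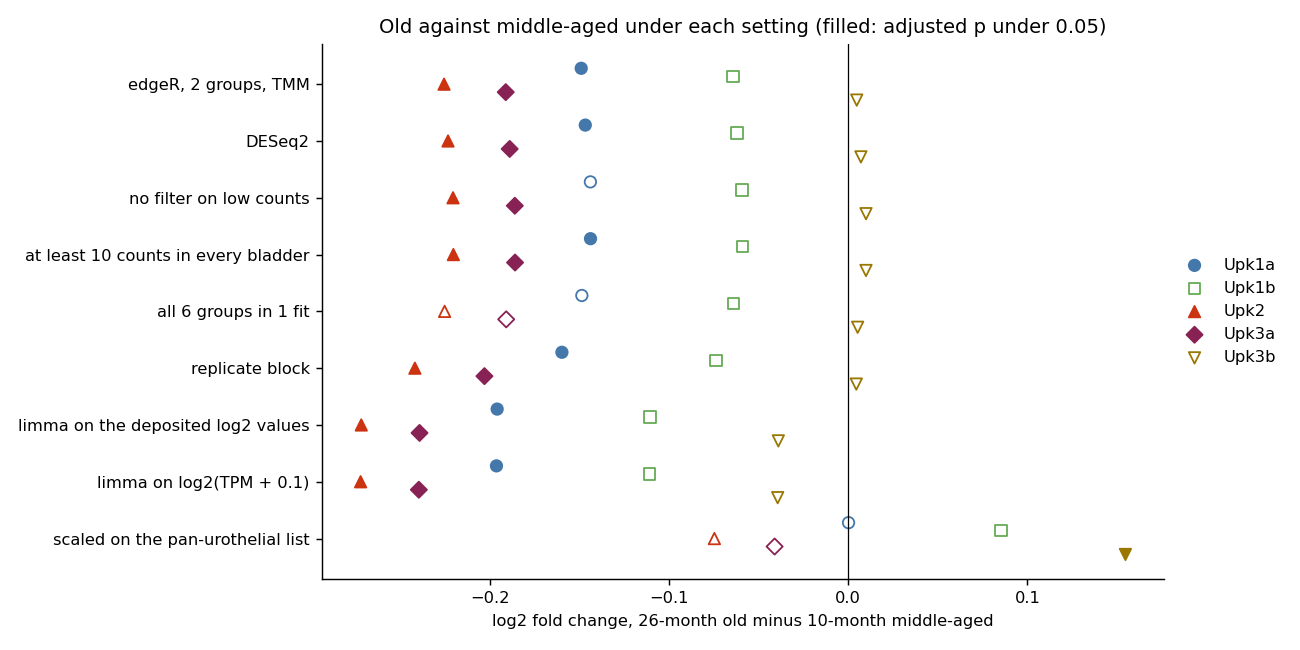
Log2 fold change (x axis) of the 5 uroplakins in old against middle-aged bladders under each processing setting (y axis), with filled symbols for an adjusted p under 0.05. Upk2 and Upk3a lie left of 0 in each row, and Upk1a in each but the last, where scaling on pan-urothelial genes moves it to 0.00 and the single filled symbol is Upk3b at 0.15.

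Urothelial genes outside the family showed which neighbours fell in the same comparison. Of 9 pan-urothelial genes, 6 fell and 0 rose, with a list median of -0.14 against -0.00 over all genes. The epithelial adhesion gene Epcam went from 62.0 ± 0.562 (SD, n = 5) to 50.9 ± 3.94 CPM (SD, n = 6), a log2 fold change of -0.29 ± 0.05 (SE, edgeR adjusted p = 0.000816). The claudin Cldn7 (-0.20 ± 0.05) and the splicing factor Esrp1 (-0.18 ± 0.03) were the next largest falls, and Krt18, Krt19 and Cdh1 also fell. Scaled on the list itself, which holds its own mean level fixed, 1 of these 9 rose and 1 fell.

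Of 12 tested genes for the vesicle traffic of plaques, 4 fell and 0 rose, with a list median of -0.05. Scaled on the pan-urothelial genes, 6 rose and 1 fell, where 38.7% of all tested genes were called higher and 306 of 17156 lower. Snx31, a sorting nexin that binds uroplakins, went from 382 ± 14.9 (SD, n = 5) to 330.3 ± 17.8 CPM (SD, n = 6), a log2 fold change of -0.21 ± 0.04 (SE, edgeR adjusted p = 0.00399). The small GTPase Rab17 fell by 0.98 ± 0.19 on the log2 scale (SE, edgeR adjusted p = 0.00230), from a low level of 6.12 ± 0.841 (SD, n = 5) to 3.12 ± 0.940 CPM (SD, n = 6). Rab13 (-0.23 ± 0.08) and Rab15 (-0.13 ± 0.03) were the other falls. Mal, the raft protein needed to insert plaques, and Rab27b, the GTPase of fusiform vesicles, had log2 fold changes of 0.05 ± 0.06 (SE, edgeR adjusted p = 0.587) and 0.01 ± 0.04 (SE, edgeR adjusted p = 0.849).

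Of 7 superficial cell genes, 1 fell, the claudin Cldn4 (-0.16 ± 0.05, SE, edgeR adjusted p = 0.0417), with a list median of -0.10. Krt20, the keratin of umbrella cells, was at -0.16 ± 0.08 (SE, edgeR adjusted p = 0.187), and Psca, a surface antigen of superficial urothelium, at -0.01 ± 0.06 (SE, edgeR adjusted p = 0.947). Of these 7, 3 rose and 0 fell when scaled on the pan-urothelial genes, where 38.7% of all tested genes were called higher. Of 12 transcription factors, 2 fell, Gata3 (-0.14 ± 0.03, SE, edgeR adjusted p = 0.0128) and the retinoid receptor Rxra (-0.12 ± 0.04, SE, edgeR adjusted p = 0.0443), and 1 rose, the interferon-response factor Irf1 (0.55 ± 0.14, SE, edgeR adjusted p = 0.0140), with a list median of -0.10. Of these 12, 2 rose and 0 fell on the pan-urothelial scale, against the same 38.7% of all tested genes. Grhl3, which is needed for umbrella cells to form, was at -0.10 ± 0.05 (SE, edgeR adjusted p = 0.202).

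Of 10 tested basal and intermediate cell genes, 1 fell, the hedgehog ligand Shh (-0.18 ± 0.05, SE, edgeR adjusted p = 0.0271), and 2 rose, Cd44 and Krt14, with a list median of 0.05. Krt14 was under 2 CPM on average in both groups, and its old mean of 1.92 ± 2.81 CPM (SD, n = 6) had an SD above the mean. Of these 10, 3 rose and 0 fell on the pan-urothelial scale, where 38.7% of all tested genes were called higher. Mesothelial genes bear on Upk3b and Upk1b, which that layer also expresses. Of 8 mesothelial genes 2 rose, Gpm6a (0.45 ± 0.08, SE, edgeR adjusted p = 0.00144) and Rspo1 (0.40 ± 0.11, SE, edgeR adjusted p = 0.0155), and 0 fell, with a list median of 0.32. Against the same 38.7% of all tested genes, 5 of these 8 rose on the pan-urothelial scale. Their summed level was 94.7 to 155 CPM in middle-aged and 131 to 183 CPM in old bladders, with no marker at 0. The part of mesothelium in the level of Upk3b was not tested.

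**Figure D4:**
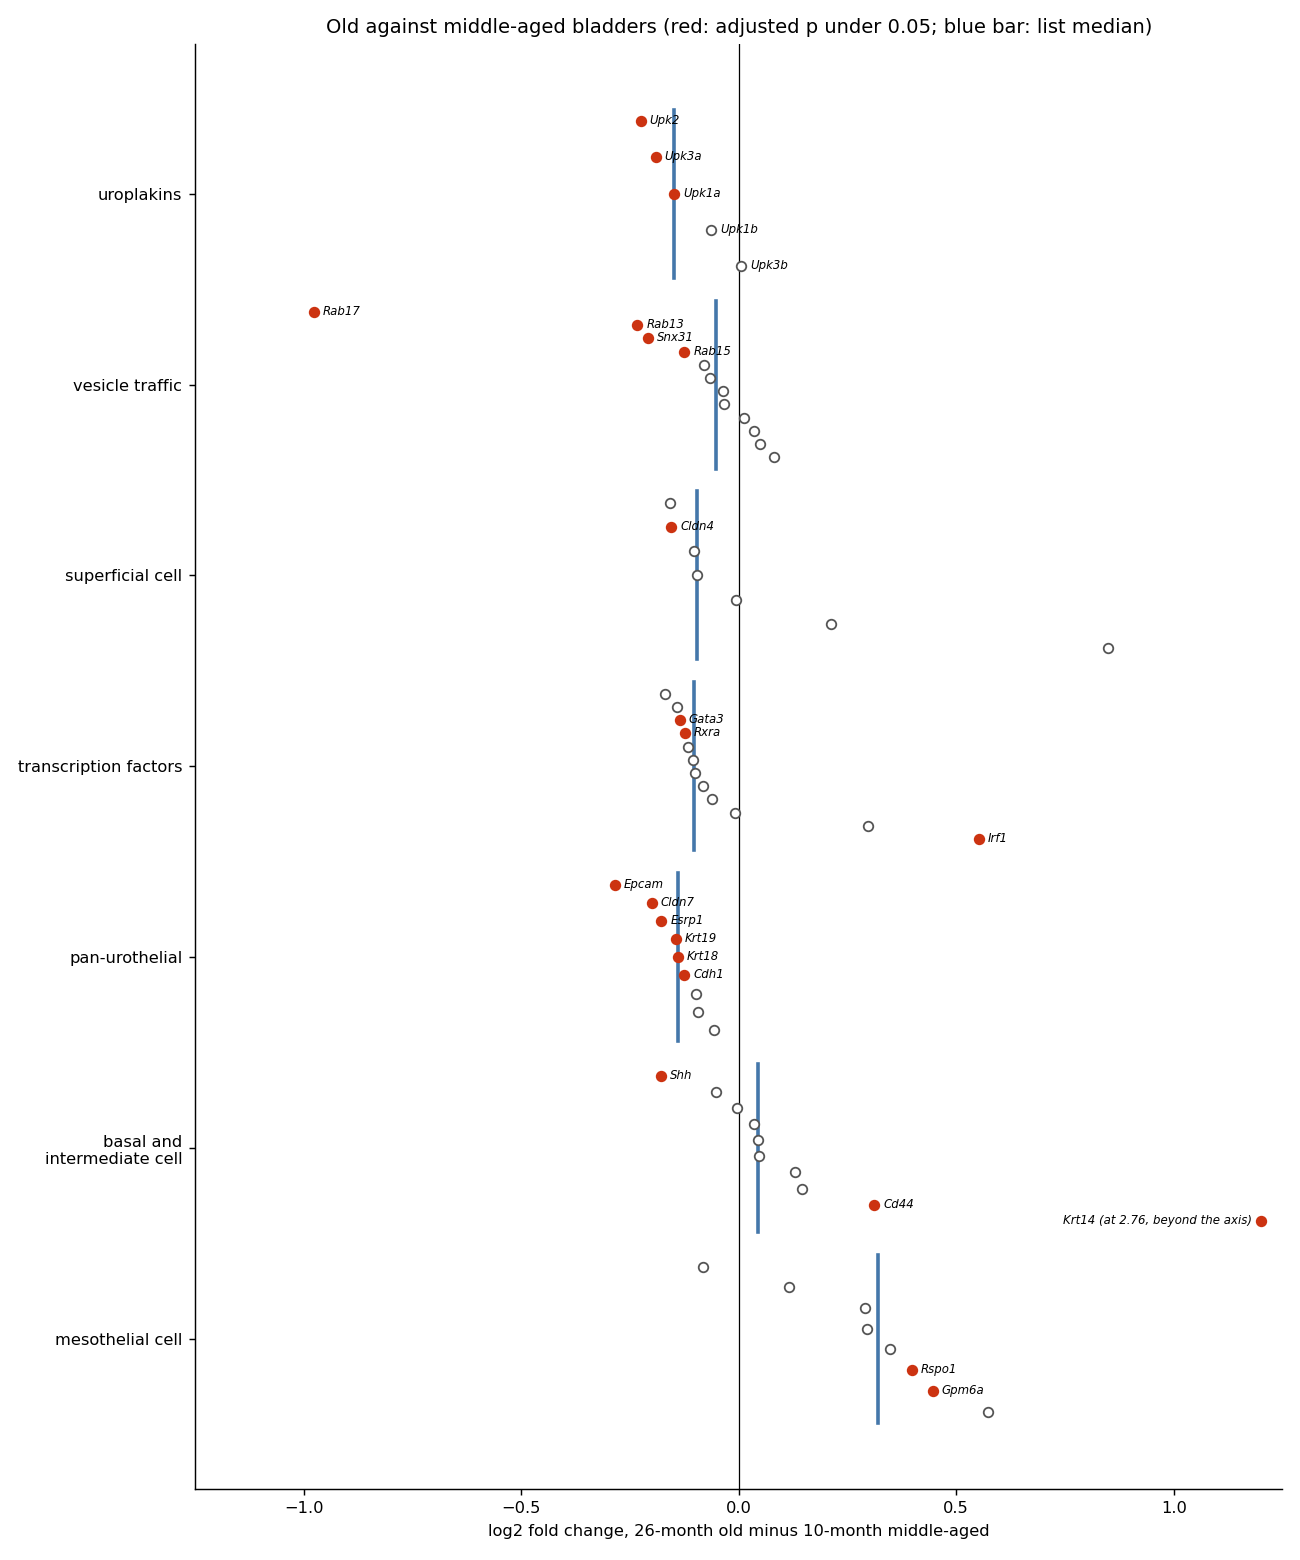
Log2 fold change (x axis) of each tested gene in old against middle-aged bladders on the TMM scale, by gene list (y axis), with blue bars for list medians and red points for an adjusted p under 0.05 (Krt14, at 2.76, is drawn at the edge). The uroplakin median of -0.15 lies beside the pan-urothelial median of -0.14, the mesothelial median is at 0.32, and scaling on pan-urothelial genes moves the median of all genes from -0.00 to 0.14.

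Over the whole span from 2 to 26 months, untreated, no uroplakin passed the test. Mean CPM in young and old bladders was 1346 ± 159 and 1305 ± 43.4 for Upk1a, 967 ± 66.9 and 896 ± 34.1 for Upk1b, 448 ± 51.2 and 411 ± 26.4 for Upk2, 738 ± 66.5 and 679.7 ± 35.2 for Upk3a and 290.1 ± 18.4 and 279.8 ± 12.8 for Upk3b (SD, n = 6 and 6). The old mean was the lower one for all 5, and the groups overlapped for all 5. Log2 fold changes were -0.04 ± 0.07 (SE) for Upk1a, -0.11 ± 0.05 for Upk1b, -0.12 ± 0.07 for Upk2, -0.12 ± 0.06 for Upk3a and -0.05 ± 0.05 for Upk3b. With edgeR's quasi-likelihood test 0 of 5 were called and 0 of 5 had an unadjusted p under 0.05, DESeq2 calling 0 with 1 under 0.05, where 25.1% of all tested genes were called. The smallest edgeR adjusted p was 0.156, for Upk1b, with a 95% confidence interval of -0.22 to 0.00, and the interval of Upk2 reached from -0.28 to 0.03. Without the 4 shallow libraries Upk1a turned to 0.06 ± 0.06 (SE) and Upk2 to -0.02 ± 0.06, and 0 of 5 were called. On the pan-urothelial scale all 5 log2 fold changes were below 0, -0.08 for Upk1a, -0.16 for Upk1b, -0.16 for Upk2, -0.16 for Upk3a and -0.10 for Upk3b. There 0 of 5 were called by edgeR and 2 of 5, Upk2 and Upk3a, had an unadjusted p under 0.05. The median of all genes on that scale was -0.06.

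Between the same groups 3 of the 12 transcription factors rose, Klf5 (0.30 ± 0.07), Ehf (0.23 ± 0.05) and Foxa1 (0.14 ± 0.05), and 0 of 9 pan-urothelial genes passed. Scaled on the pan-urothelial genes, 1 transcription factor, 1 superficial and 2 basal genes rose, and 1 vesicle traffic, 1 basal and 1 mesothelial gene fell. There 1286 of 16873 tested genes were called higher and 1882 lower. On that scale, which holds their own mean level fixed, 0 pan-urothelial genes passed. Of 12 vesicle traffic genes, Sytl2 rose (0.22 ± 0.06) and Rab17 fell (-0.95 ± 0.23). Of 7 superficial cell genes 0 passed with edgeR, the smallest edgeR adjusted p being 0.0538 for Tjp3. Of 10 tested basal and intermediate cell genes, Col17a1 (0.50 ± 0.12), Lamb3 (0.44 ± 0.12) and Cd44 (0.33 ± 0.09) rose and Itga6 fell (-0.31 ± 0.06), and of 8 mesothelial genes Aldh1a2 fell (-0.47 ± 0.14). The low relative Upk3bl went from 1.97 ± 0.402 (SD, n = 6) to 1.34 ± 0.127 CPM (SD, n = 6), a log2 fold change of -0.56 ± 0.15 (SE, edgeR adjusted p = 0.0152). Its values are uncertain where reads match both it and Upk3b, and it was at most 3.12 CPM in any of the 32 bladders.

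In old mice, neither gavage alone nor D + Q moved a uroplakin past the test. The Upk3a means were 679.7 ± 35.2 CPM (SD, n = 6) in untreated, 745 ± 47.5 (SD, n = 5) in water-gavaged, 732 ± 61.5 (SD, n = 4) in vehicle-gavaged and 758 ± 97.4 CPM (SD, n = 6) in D + Q-gavaged bladders. On this scale all 3 gavaged groups had a higher mean than untreated bladders, and all 3 overlapped them. Scaled on the pan-urothelial genes, the Upk3a log2 fold changes against untreated bladders were instead -0.03 with water, -0.01 with vehicle and -0.01 with D + Q, and 0 of 3 passed. The water bladders were at 777, 709.5, 799, 684 and 757 CPM, the vehicle bladders at 677, 748, 690.5 and 812 CPM, and the D + Q bladders had a lowest of 627, a median of 728 and a highest of 899 CPM. These comparisons share the untreated old bladders as their reference.

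Against untreated old bladders, water gave the highest log2 fold change in Upk3a, 0.13 ± 0.05 (SE, edgeR adjusted p = 0.215), and the lowest in Upk1b, -0.00 ± 0.05 (edgeR adjusted p = 0.999). With edgeR 0 of 5 were called and 1 of 5, Upk3a, had an unadjusted p under 0.05, DESeq2 likewise, where 1.0% of all tested genes were called. Without water replicate 1 the Upk3a value was 0.12 ± 0.05 (SE, edgeR adjusted p = 0.401) and the Upk1b value 0.02 ± 0.06 (SE, edgeR adjusted p = 0.942). On the pan-urothelial scale all 5 water values were below 0, from -0.17 ± 0.05 (SE, edgeR adjusted p = 0.0526) in Upk1b to -0.03 ± 0.06 (SE, edgeR adjusted p = 0.718) in Upk3a. There 0 of 5 were called and 2 of 5, Upk1b and Upk3b, had an unadjusted p under 0.05, where the median of all genes was -0.16. Vehicle gave the highest log2 fold change in Upk3b, 0.12 ± 0.06 (SE, edgeR adjusted p = 0.624), and the lowest in Upk2, 0.03 ± 0.10 (edgeR adjusted p = 0.937). With edgeR 0 of 5 were called and 0 of 5 had an unadjusted p under 0.05, DESeq2 likewise, where 0.00% of all tested genes were called by edgeR, 1464 of 17440 had an unadjusted p under 0.05 and DESeq2 called 132. Vehicle replicate 4, a shallow library, carried the highest Upk1a, Upk2, Upk3a and Upk3b of its group, and without it the vehicle log2 fold change of Upk2 turned to -0.10 ± 0.06 (SE, edgeR adjusted p = 0.907) and that of Upk1a to -0.04 ± 0.04 (SE, edgeR adjusted p = 0.953). Without it Upk3b was at 0.05 ± 0.05 (SE, edgeR adjusted p = 0.944). On the pan-urothelial scale the vehicle values ran from -0.09 ± 0.10 (SE) in Upk2 to 0.00 ± 0.06 in Upk3b, and 0 of 5 were called.

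D + Q against untreated old bladders gave log2 fold changes of 0.16 ± 0.08 (SE) for Upk3a, 0.10 ± 0.07 for Upk1a, 0.05 ± 0.06 for Upk3b, 0.04 ± 0.06 for Upk1b and 0.03 ± 0.07 for Upk2. With edgeR 0 of 5 were called and 0 of 5 had an unadjusted p under 0.05, with DESeq2 calling 0 and 1 under 0.05. By edgeR 0.00% of all tested genes were called, 2200 of 17037 had an unadjusted p under 0.05 and DESeq2 called 180. The 95% confidence interval of Upk3a, -0.01 to 0.32, allows a rise of up to 24.6%, and that of Upk2, -0.14 to 0.19, a fall of up to 8.99% or a rise of up to 13.8%. On the pan-urothelial scale all 5 log2 fold changes turned negative, -0.01 for Upk3a, -0.06 for Upk1a, -0.11 for Upk3b, -0.11 for Upk1b and -0.13 for Upk2, and 0 of 5 were called. The D + Q bladders were the most spread for Upk3a, Upk1a and Upk1b among the gavaged groups, replicate 1 being the lowest and replicate 6 the highest in each of the 5 genes.

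Against vehicle, its own control, D + Q gave a highest log2 fold change of 0.05 ± 0.09 (SE, edgeR adjusted p = 0.999) in Upk3a and a lowest of -0.08 ± 0.08 (edgeR adjusted p = 0.994) in Upk3b. With edgeR 0 of 5 were called and 0 of 5 had an unadjusted p under 0.05, DESeq2 likewise, where 0.00% of all tested genes were called, 722 of 17267 had an unadjusted p under 0.05 and DESeq2 called 10. Against water, D + Q gave a highest log2 fold change of 0.04 ± 0.08 (SE, edgeR adjusted p = 0.934) in Upk1b and a lowest of -0.07 ± 0.09 (edgeR adjusted p = 0.895) in Upk2. With edgeR 0 of 5 were called and 0 of 5 had an unadjusted p under 0.05, DESeq2 likewise, where 0.00% of all tested genes were called, 1342 of 17161 had an unadjusted p under 0.05 and DESeq2 called 69. Without the shallow libraries the Upk2 value turned to 0.11 ± 0.10 (SE) against vehicle and was -0.01 ± 0.09 against water, and 0 of 5 were called in either comparison. The lowest value against vehicle, that of Upk3b, was then -0.01 ± 0.07 (SE, edgeR adjusted p = 0.999), and the highest that of Upk1a, 0.12 ± 0.09 (SE, edgeR adjusted p = 0.999). With those libraries included, the 95% confidence intervals spanned from -0.26 to 0.25 against vehicle and from -0.26 to 0.21 against water over the 5 genes.

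Among other urothelial genes, against untreated old bladders, Krt18 (0.28 ± 0.05, SE, edgeR adjusted p = 0.0280) and Epcam (0.27 ± 0.05, SE, edgeR adjusted p = 0.0280) rose with water among the 9 pan-urothelial genes, with a list median of 0.16. In that fit 1.0% of all tested genes were called. With all 6 groups fitted together 0 of 18093 genes were called, and limma called 0 of 17250. Without water replicate 1, a shallow library, 37 of 17406 genes were called. Scaled on the list itself 0 of the 9 passed, but that scale holds their own mean level fixed and so cannot decide on their rise. With vehicle 0 of 9 passed, where 0.00% of all tested genes were called, and the median was 0.15. With D + Q 0 of 9 passed, where likewise 0.00% of all tested genes were called, and the median was 0.18. Whether water differed from vehicle or D + Q in these genes was not tested. In the vesicle traffic, superficial cell, transcription factor, basal and mesothelial lists 0 genes passed with edgeR in any comparison of gavaged bladders on the TMM scale. Scaled on the pan-urothelial genes, 2 vesicle traffic, 1 superficial and 2 mesothelial genes fell with water, and 0 genes of these 5 lists passed in the other 4 comparisons. On that scale 2197 of 17250 tested genes were called lower with water, and 0 of all tested genes passed in any of the other 4. In D + Q against untreated old bladders, the superficial cell gene of smallest p was Cldn4, with a log2 fold change of 0.27 ± 0.06 (SE, edgeR adjusted p = 0.233). Among the transcription factors, Foxa1 was at 0.15 ± 0.05 (SE, edgeR adjusted p = 0.282) and Gata3 at 0.11 ± 0.04 (SE, edgeR adjusted p = 0.336) in the same comparison.

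A test of any difference among the 6 groups called 0 of 5 uroplakins with edgeR, 0 of 5 having an unadjusted p under 0.05 and DESeq2 likewise, where 31.9% of all tested genes were called. The smallest edgeR adjusted p was 0.281, for Upk3a. Without the 4 shallow libraries Upk2 alone passed (edgeR adjusted p = 0.0385), where 36.0% of all tested genes were called, and Upk1a was at an edgeR adjusted p of 0.0728. On the pan-urothelial scale Upk1a, Upk1b, Upk2 and Upk3b passed, 4 of 5, where 48.5% of all tested genes were called. On that same scale, middle-aged against young bladders gave log2 fold changes of -0.08 for Upk1a, -0.09 for Upk2, -0.12 for Upk3a and -0.25 for Upk1b. Upk3b fell by 0.25 (edgeR adjusted p = 0.0155), the only uroplakin to pass there, where 31.1% of all tested genes were called lower and the median of all genes was -0.21.

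The members followed each other from bladder to bladder. Pearson's r of log2 CPM over the 32 bladders was 0.86 for Upk1a with Upk2, 0.86 for Upk1a with Upk3a and 0.76 for Upk2 with Upk3a. Over all 32 bladders, Upk1b and Upk3b were more loosely tied. Upk1b had r between 0.43 and 0.58 to the other 4, and its r with its partner Upk3a was 0.51. Upk3b had r between 0.56 and 0.66 to the other 4. After each group's mean was subtracted, the values were 0.91 for Upk1a with Upk2, 0.86 for Upk1a with Upk3a and 0.53 for Upk1b with Upk3a. Without the 4 shallow libraries they were 0.83, 0.86 and 0.56 over 28 bladders. For Upk3b, r with the other 4 was 0.63 to 0.80 with group means subtracted and 0.45 to 0.67 over those 28 bladders. With group means subtracted its r was 0.80 with Upk1a and 0.80 with Upk2, against 0.78 for Upk2 with Upk3a. So its looser tie to Upk1a and Upk2 was not seen there. Over those 28 bladders Upk2 with Upk3a was at 0.74. Points of 1 bladder share their library, their scaling factor and their mix of cells, so these are descriptions only.

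The balance within the pairs was described by ratios of TPM. Upk1a over Upk2 was 2.29 ± 0.0720 in young (SD, n = 6), 2.30 ± 0.107 in middle-aged (SD, n = 5) and 2.42 ± 0.0992 in old bladders (SD, n = 6). It was 2.36 ± 0.135 with water (SD, n = 5), 2.47 ± 0.165 with vehicle (SD, n = 4) and 2.55 ± 0.125 with D + Q (SD, n = 6). Untreated groups overlapped, and the D + Q range of 2.37 to 2.74 overlapped each other group, reaching only the highest of the young range of 2.22 to 2.39. Upk3a over Upk1b was 1.47 ± 0.191 in young (SD, n = 6), 1.59 ± 0.0616 in middle-aged (SD, n = 5) and 1.45 ± 0.0492 in old bladders (SD, n = 6). The middle-aged range of 1.51 to 1.68 overlapped the old range of 1.39 to 1.53. Differences in these ratios were not tested.

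The 10 genes outside the family whose log2 CPM was most like the mean of the 5 uroplakins over 32 bladders were Snx31 (r = 0.86), Pcbp3 (0.86), Hsd17b10 (0.86), Hdac3 (0.85), Ndufv1 (0.84), Ptgr1 (0.84), Ndufv3 (0.84), Bcl2l14 (0.83), Park7 (0.82) and Cox7a2 (0.82). Snx31, a member of the vesicle traffic list, was nearest over 32 bladders by a narrow margin, at 0.861 against 0.858 for Pcbp3. Its rank was 8 with group means subtracted and 2 without the 4 shallow libraries. With group means subtracted, 4 of these 10 stayed in the list, Hsd17b10, Pcbp3, Ptgr1 and Snx31, and Ctsd (0.90) and Psca (0.90) entered it. Without the 4 shallow libraries 6 of the 10 stayed. By single gene, Upk2 was most like Bnipl (0.86), Upk1a (0.86) and Pcbp3 (0.85), and Upk3a most like Bcl2l14 (0.87), Upk1a (0.86) and Snx31 (0.86). Upk3b was most like Psca (0.81), Mrpl51 (0.78) and Dgcr6 (0.77). Upk1a was most like 9530014B07Rik (0.91), Adh1 (0.89) and Ndufv3 (0.88), and Upk1b most like Ndrg2 (0.75), Arf1 (0.73) and Pitpna (0.71). For other genes of the plaque route r was 0.09 for Mal and -0.03 for Rab27b. Krt20 was at 0.63, Gata3 at 0.33 and Grhl3 at 0.28. The mean of the 5 had r of 0.55 with the mean of the pan-urothelial list, -0.21 with the mitochondrial share of TPM and -0.33 with total counts.

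**Figure D5:**
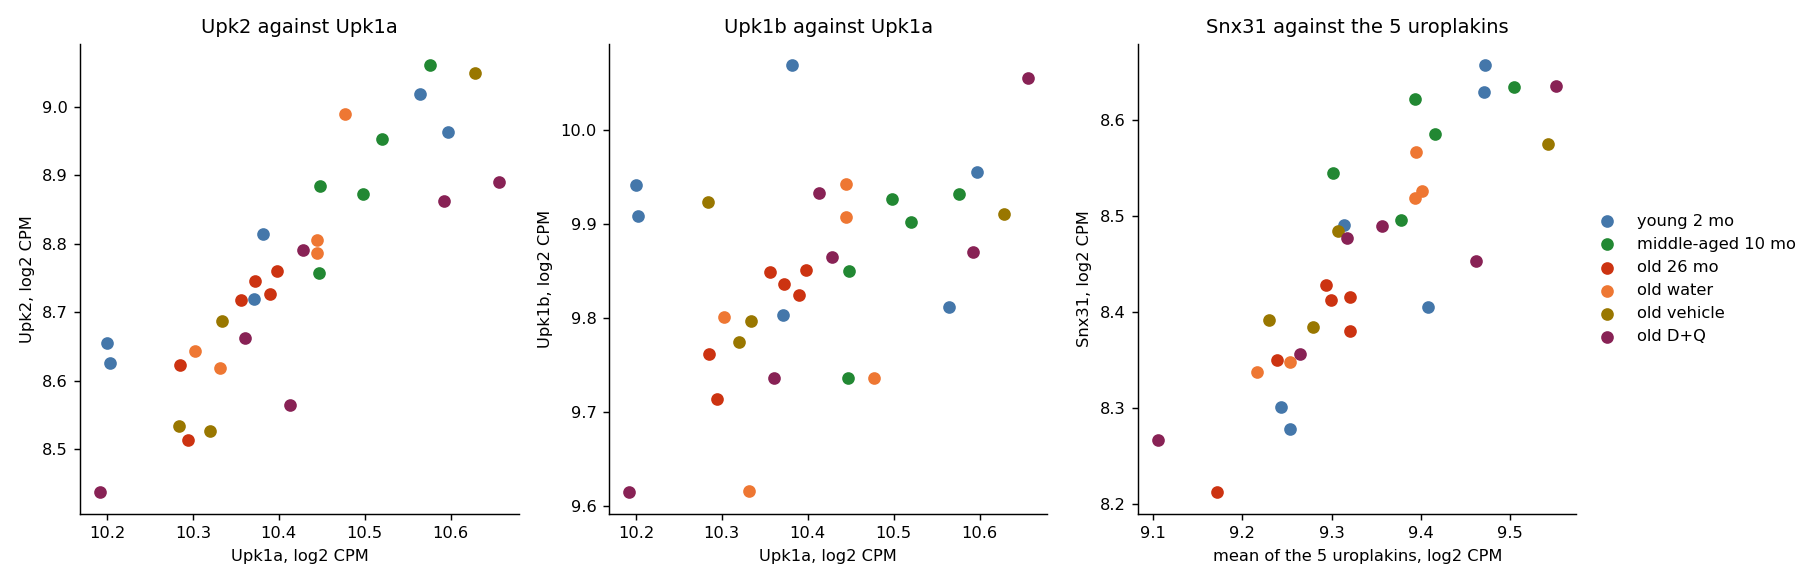
Log2 CPM of Upk2 against Upk1a, of Upk1b against Upk1a and of Snx31 against the mean of the 5 uroplakins (left to right), 1 point per bladder, coloured by group. Upk2 follows Upk1a (r = 0.86) and Snx31 follows the mean (r = 0.86), whereas Upk1b is more loosely tied to Upk1a (r = 0.43).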

How the data were processed

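Whole-bladder RNA of 32 mice had been sequenced from stranded total RNA libraries. The authors aligned reads to mm10 with STAR (2.7.3 in the submitters' processing notes) and counted them per gene with featureCounts of Subread; the strand setting is not given in the sources used here. The deposited counts are whole reads per gene, not normalized, and the gene lengths deposited beside them are summed exon bases. A deposited table of log2 values holds, as tested on the counts, log2 of the count plus 1 divided by gene length, scaled by the authors to a linear sum of 100000 per bladder.

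From the counts, TMM-scaled CPM and TPM were computed. Each of the 8 comparisons was fitted on its 2 groups alone with edgeR 4.0.16 (R 4.3.3) after filterByExpr, with the quasi-likelihood test and Benjamini-Hochberg adjustment over all tested genes, at a threshold of 0.05. All 5 uroplakins passed the filter in every fit. Likeness used log2 CPM with a prior count of 2. Alternatives were DESeq2 1.42.0, other filters, limma 3.58.1 on the deposited log2 values and on log2(TPM + 0.1), all 6 groups in 1 fit, a replicate block, scaling on the pan-urothelial list and leaving out bladders. Fits were also run on counts simulated from a model of the same kind with the spread estimated here, so those runs do not test the model itself. The members and gene lists were chosen with earlier results of these data known. All members were named in each comparison; of each list, up to 3 rises and 3 falls past the threshold, or up to 2 genes of smallest p, and the 10 genes most like the mean of the 5 and 3 most like each; Rab15, Mal, Rab27b, Krt20, Psca, Grhl3, Krt18, Krt19, Cdh1 and Rxra were also named in some comparisons, chosen after their values were seen. Positions, exons and overlaps come from GENCODE vM21. No label says that samples of a group came from separate cages or days, so p-values measure the spread between these bladders.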

Additional observations from a re-analysis of the deposited data

Results flagged for a closer look

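In 30 groups of bladders, 5 uroplakins in 6 groups, the highest or lowest bladder was tested by Dixon's criterion on log2 CPM, which chance passes in about 1 of 20 groups, and 3 bladders stood apart. Vehicle replicate 4 was the highest for Upk1a, at 1583 CPM against 1247 to 1290.3 CPM in the other 3 vehicle bladders, and it is 1 of the 4 shallow libraries. Untreated old replicate 5 was the lowest for Upk3a, at 611 CPM against 682 to 706 CPM in the other 5. Untreated old replicate 3 was the highest for Upk3b, at 304 CPM against 271 to 282 CPM in the other 5.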

How the results depend on the processing

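In old against middle-aged bladders 3 uroplakins were called by DESeq2, by both limma fits, with a minimum of 10 counts, with the replicate block and with any 1 bladder left out. Without a filter on low counts 2 were called, Upk1a being lost at -0.14, and with all 6 groups in 1 fit 0 were. Scaling on the pan-urothelial list left 1 call there (Upk3b), gave 1 call in middle-aged against young bladders (Upk3b) and 4 among all 6 groups. Leaving out the 4 shallow libraries, chosen after seeing the data, gave 2 calls in middle-aged against young bladders and 1 among all 6 groups. The cause was not tested. Values below cover all 5 uroplakins in the age comparisons and in D + Q against untreated old bladders, and the highest and lowest of the 5 in the other 4 comparisons, 28 values of 40. The scaling turned these log2 fold changes: Upk1a to -0.082, Upk2 to -0.086 and Upk3a to -0.12 in middle-aged against young, Upk1a to 0.00023 and Upk1b to 0.085 in old against middle-aged, Upk3a to -0.031 with water, Upk2 to -0.087 with vehicle, and Upk1a to -0.062, Upk1b to -0.11, Upk2 to -0.13, Upk3a to -0.0053 and Upk3b to -0.11 with D + Q against untreated old bladders. On that scale the calls over all genes split into 6644 higher and 306 lower in old against middle-aged bladders, against 2231 and 1879, and into 259 and 5206 in middle-aged against young, against 831 and 980. Without the shallow libraries Upk3b turned to 0.0023 in middle-aged against young, Upk1a to 0.058 and Upk3b to 1.74e-05 in old against young, Upk1b to 0.016 with water and Upk2 to -0.10 with vehicle. With limma on the deposited values and on log2(TPM + 0.1), Upk3b turned to -0.0390 and -0.0393 in old against middle-aged, Upk1b to 0.0034 and 0.0039 with water, Upk2 to -0.0015 and -0.0011 with vehicle, and Upk2 to -0.0095 and -0.0093 with D + Q against untreated old bladders. With DESeq2 Upk1b turned to 2.12e-05 with water.

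Replicate numbers were taken from the sample titles. In no comparison did every same-numbered pair correlate above 0.1 (range -0.29 to 0.15) or every bladder correlate best with its own number. The deposited columns number 6 bladders differently, and by those numbers the same held (range -0.29 to 0.20). By title number, the own number was best for 3 of 5 pairs in middle-aged against young bladders. It was best for 3 of 6 in old against young, 2 of 5 in old against middle-aged and at most 1 in each gavage comparison. A pairing of only some numbers was not tested. The replicate block gave 3 calls in old against middle-aged bladders and 0 in the other 7 comparisons, as without it, and turned Upk1b to 0.0064 with water, Upk2 to -0.0019 with vehicle, Upk3a to -0.0060 in D + Q against vehicle and Upk1b to -0.00075 in D + Q against water. With 1 bladder left out in turn, 14 of the 40 log2 fold changes turned sign. Among those followed, Upk3b ranged from -0.029 to 0.0497 in old against middle-aged, Upk1a from -0.079 to 0.00066 in old against young, Upk1b from -0.031 to 0.043 with water, Upk2 from -0.10 to 0.091 with vehicle, Upk2 from -0.0102 to 0.075 in D + Q against untreated old, Upk3a from -0.013 to 0.092 in D + Q against vehicle and Upk1b from -0.0055 to 0.086 in D + Q against water. Of the genes most like the uroplakins, 4 of 10 stayed with group means subtracted and 6 of 10 without the shallow libraries. Across the other settings 202 values kept direction and call, 6 lost the call, 4 gained one and 30 reversed. With 1 bladder left out 294 kept both and 20 reversed.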
